A study of Homo sapiens with 9 samples.

Results

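The genes described here are the cytosolic heat shock response genes, a set of 38 chosen by name. They cover heat shock factors, the HSP70 and HSP110 class, HSP90 with its cochaperones, HSP40 (J) proteins, BAG factors, small heat shock proteins, the HSP60 class and the TRiC chaperonin. Of the 38 genes, 35 were measured among 18239 genes in all. HSF2, HSPB11 and AHSA1 were not analysed here. Each gene is represented by the probe set that carries its symbol alone and has the highest mean over 9 arrays.

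Cells respond to misfolded cytosolic protein by freeing the transcription factor HSF1, which otherwise is held back by the chaperones that it induces. HSF1 then binds heat shock elements, repeats of the letters GAA and TTC in alternating orientation, upstream of chaperone genes. In leukaemic and other cancer cells many of these chaperones are also made without heat, because HSP90 and HSP70 keep kinases and other client proteins folded. TRiC folds actin and tubulin, and HSP60 with HSP10 folds proteins imported into mitochondria.

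The data came from K562, an established human erythroleukaemia line, profiled on Affymetrix expression arrays. Del52 cells were transduced with calreticulin (CALR) carrying the Del52 deletion (replicates 1, 2 and 3), Ins5 cells with CALR carrying the Ins5 insertion (replicates 1, 2 and 3), and WT cells with wild-type CALR (replicates 1, 2 and 3). CALR is a chaperone of the endoplasmic reticulum (ER), and both mutations occur in myeloproliferative neoplasms. By its title the study concerns the unfolded protein and oxidative stress responses under these mutants. All 3 groups were seeded in 10% serum and went through 4 rounds of retroviral infection at 12 h intervals, with 20% serum for transduction. They then had 36 h of further culture and bead selection for the NGFR surface marker, with purity above 90% when measured 48 h later. RNA was extracted from 100000 cells per sample. The labels name no change to the cells' own CALR gene and no untransduced group, and they do not say whether replicates were separate transductions, so p-values measure only the spread between these samples.

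Values are deposited log2 expression values, so a difference of 1 is a doubling. The 23 antigenomic control probe sets, which match no human transcript, spanned 1.53 to 6.52, and the means of 6 heat shock genes (HSF1, HSPA1L, HSPA4L, DNAJB2, DNAJB4 and BAG3) lay inside that span. Of the K562 identity markers, 9 of 10 lay above it, HBG1 at 11.91 and GATA1 at 8.25 among them, and EPOR (4.10) did not. Of 13 markers of other cell types 2 lay above it (LYZ at 9.65 and EPCAM at 8.54). The summed level of those 13 markers was 10.39 to 10.53 in Del52, 10.33 to 10.46 in Ins5 and 10.19 to 10.38 in WT on the log2 scale. Probe sets differ in brightness, so levels are compared between arrays and not between genes.

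The replicate numbers mark sets of arrays in the deposited values. For all 49386 probe sets the mean over the 3 arrays of a number (1 Del52, 1 Ins5 and 1 WT array) was the same for numbers 1, 2 and 3 within 0.0001 log2 units, whereas the 3 construct means were that close for none and lay apart by a median of 0.103. Pairs of arrays with the same number also shared between 1107 and 2010 identical values, against 2 to 10 for pairs with different numbers. The sources used here do not state how these equal means arose. An array's value is therefore relative to its own set of 3, and an array that is high in a set makes the other arrays of that set low. Comparisons are given within each number beside the means, and SE and adjusted p come from a limma fit over all 9 arrays with the number as a block, which leaves 4 residual degrees of freedom. The fit without the block counts 6, and its median SE for the heat shock genes is 0.128 against 0.151 with the block. P-values were adjusted by Benjamini-Hochberg over 18239 genes, and a gene passed at an adjusted p under 0.05. SD and ranges within a construct leave out whatever differed between the sets.

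The heat shock element is shown first, because it is the shared sequence through which HSF1 reaches its targets. The 250 bases before each annotated start were read from RefSeq (GRCh38.p14), and 33 of the 35 measured genes matched, with 45 start windows. FKBP4 and HSF1 were not among them. A run of 3 alternating units, GAANNTTCNNGAA or TTCNNGAANNTTC on either strand, was found in 6 of 45 windows (13.3%), against 155 of 35116 windows of all genes (0.441%). The shorter pair GAANNTTC or TTCNNGAA, which every 3-unit run contains, was found in 17 of 45 windows (37.8%), against 4067 of all windows (11.6%). The stretches below run 5′ to 3′ on the gene's strand. Capitals mark the 3-unit runs in the first 6 stretches and the pairs in the others. Pairs outside a 3-unit run, as in HSP90AA1 and CHORDC1, stay in lower case in the first 6. The first 6 are the genes with 3 units, at chr11:123062149-123062386 (minus strand), chr14:102087090-102087162 (minus), chr6:44247748-44247873 (plus), chr7:157336843-157336915 (plus), chr2:197500038-197500090 (minus) and chr11:90223057-90223139 (minus). DNAJB1, at chr19:14518407-14518504 (minus), is shown because it varied most between arrays and holds 2 separate pairs. HSPA1A, at chr6:31815407-31815474 (plus), and HSPA1B, at chr6:31827603-31827670 (plus), are shown because they are near copies.
HSPA8: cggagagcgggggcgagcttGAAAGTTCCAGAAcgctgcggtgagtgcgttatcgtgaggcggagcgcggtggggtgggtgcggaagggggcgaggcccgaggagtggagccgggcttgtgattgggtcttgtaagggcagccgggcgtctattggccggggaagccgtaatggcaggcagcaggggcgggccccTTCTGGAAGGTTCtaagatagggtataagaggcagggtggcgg
HSP90AA1: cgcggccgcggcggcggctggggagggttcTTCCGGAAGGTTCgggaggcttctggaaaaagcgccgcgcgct
HSP90AB1: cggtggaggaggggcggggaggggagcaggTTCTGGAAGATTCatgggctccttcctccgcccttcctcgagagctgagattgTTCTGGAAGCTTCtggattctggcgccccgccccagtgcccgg
DNAJB6: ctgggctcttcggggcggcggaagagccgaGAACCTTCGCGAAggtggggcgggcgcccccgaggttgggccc
HSPD1: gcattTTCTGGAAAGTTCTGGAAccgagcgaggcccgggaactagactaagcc
CHORDC1: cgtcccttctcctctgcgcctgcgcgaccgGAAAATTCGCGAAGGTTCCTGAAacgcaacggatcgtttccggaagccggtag
DNAJB1: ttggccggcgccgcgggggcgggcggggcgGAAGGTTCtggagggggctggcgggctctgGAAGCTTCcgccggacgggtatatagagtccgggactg
HSPA1A: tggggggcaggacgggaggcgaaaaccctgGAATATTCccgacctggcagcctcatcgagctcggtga
HSPA1B: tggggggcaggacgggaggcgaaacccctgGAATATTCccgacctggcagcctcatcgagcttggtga
The matches were descriptive, and no binding was measured. Only exact matches in the 250 bases before a start were counted, so a gene without a match may hold an element elsewhere or in a looser form. The runs of HSPD1, for example, lay outside the window of HSPE1, which had no match. HSP90AB1, HSPA8 and HSPD1 held 2 runs of 3 units each, those of HSPD1 overlapping, and CHORDC1 held 3 overlapping runs. The HSPA1A and HSPA1B stretches differed at 2 of 68 bases. The HSPA1A stretch, read on the other strand, also lies before the start of HSPA1L, which is transcribed away from it. HSPA1A and HSPA1B encode the same protein and their transcripts are nearly identical, so their probe sets cannot be assumed to separate them.

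Across the 3 constructs no heat shock gene passed the test, and the limma adjusted p with the replicate block was 1 for each of the 35 genes in all 3 comparisons. Without the block the smallest was 0.466. In Del52 against WT, 0 of 35 genes were called (0% of all genes). In Ins5 against WT, 0 of 35 were called (0% of all genes), and in Del52 against Ins5, 0 of 35 (0% of all genes), with the block and without it. The limma F test over the 3 groups, fitted without the block, also called 0 of 35 (0% of all genes), and 1 of 35 heat shock genes (2.86%) had an unadjusted p under 0.05, against 1318 of all genes (7.23%). The map of the 35 genes by array shows that most of the set was high or low together on single arrays. The median share of variance that lay between the constructs was 15.8% in the set, 21.3% over all genes and 14.5% over genes above the median level.

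**Figure D1:**
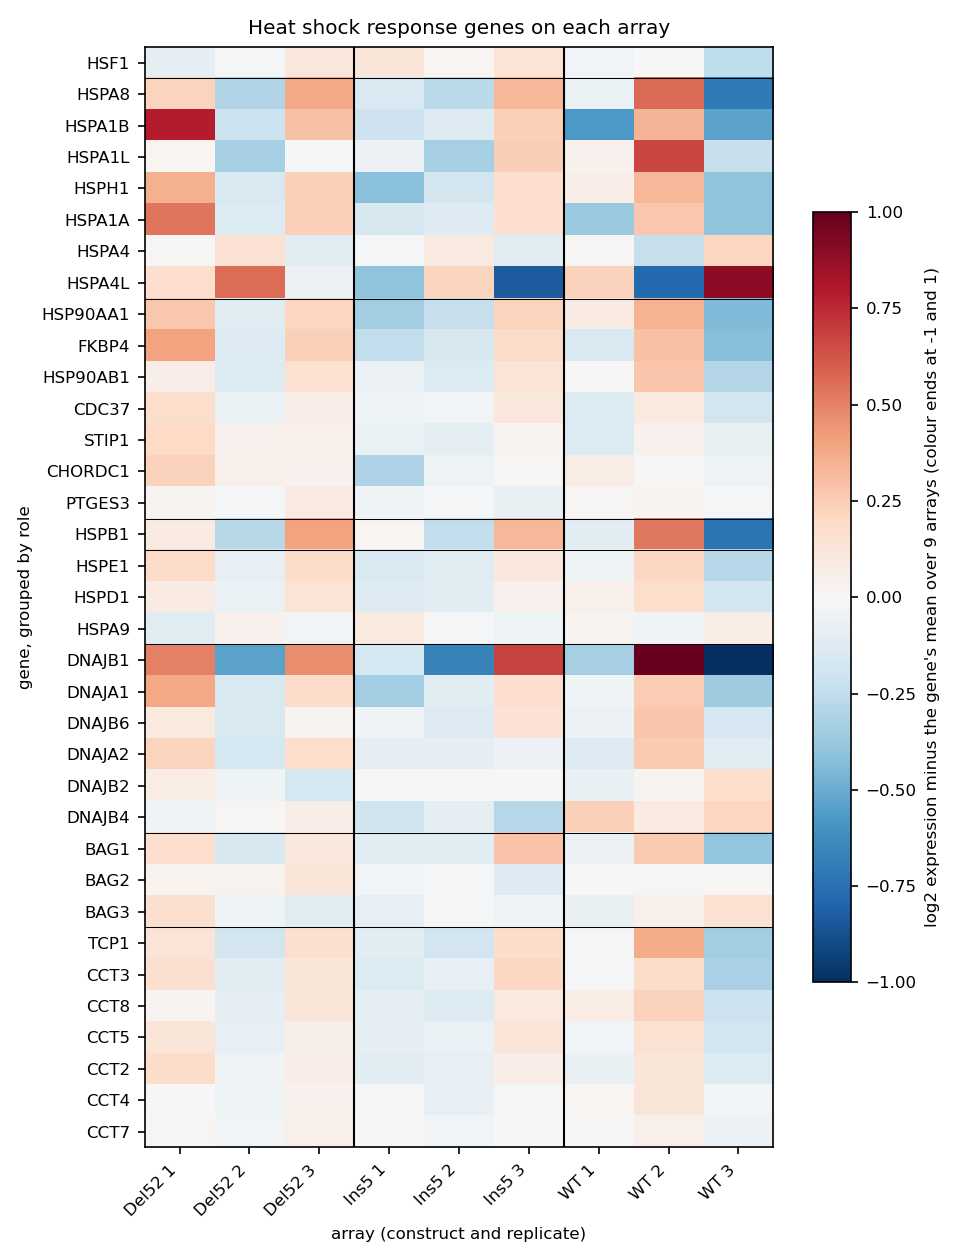
Each row is a heat shock gene, grouped by role, and each column an array; colour gives the log2 expression minus that gene's mean over 9 arrays, with the scale ending at -1 and 1. Most rows are above their mean on Del52 replicates 1 and 3, Ins5 replicate 3 and WT replicate 2 and below it on WT replicate 3, while HSPA4L runs the other way; each set of 3 same-numbered arrays has the same mean.

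HSF1, the main activator of the response, read 5.34, 5.41 and 5.55 on the Del52 arrays, 5.55, 5.45 and 5.57 on the Ins5 arrays and 5.40, 5.43 and 5.17 on the WT arrays. The 3 Ins5 values stood above the 3 WT values by a narrow margin, and Del52 overlapped both. The log2 fold change against WT was 0.10 ± 0.10 in Del52 and 0.19 ± 0.10 in Ins5 (SE). The mean of HSF1 lay within the antigenomic span.

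The HSP70 class binds exposed hydrophobic stretches of unfolded proteins, and HSP110 proteins exchange its nucleotide. HSPA8, the constitutive HSC70, read 11.72, 11.20 and 11.88 in Del52, 11.34, 11.23 and 11.83 in Ins5 and 11.43, 12.06 and 10.79 in WT. The Del52 array was above the WT array of its number by 0.29 and 1.09 log2 units at numbers 1 and 3 and differed by -0.86 at number 2. The mean log2 fold change was 0.17 ± 0.38 in Del52 against WT and 0.04 ± 0.38 in Ins5 against WT (SE). HSPA1A, the stress-inducible HSP70, read 10.88, 10.21 and 10.58 in Del52, 10.18, 10.21 and 10.51 in Ins5 and 9.98, 10.61 and 9.94 in WT. HSPA1B read 7.38, 6.38 and 6.89 in Del52, 6.38, 6.47 and 6.83 in Ins5 and 6.02, 6.93 and 6.06 in WT. Del52 differed from WT by 0.90, -0.40 and 0.64 log2 units at numbers 1, 2 and 3 for HSPA1A and by 1.36, -0.55 and 0.83 for HSPA1B, so in both genes it was above WT in 2 sets and below it in 1. Against WT, the Del52 log2 fold changes of 0.38 ± 0.26 for HSPA1A and 0.55 ± 0.36 for HSPA1B did not pass (SE). Those of Ins5 were 0.13 ± 0.26 and 0.22 ± 0.36. For HSPA1B the Del52 value was 0.30 without Del52 replicate 1 and 0.84 without WT replicate 2. For HSPA1A the same omissions gave 0.22 and 0.60.

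HSPH1, the stress-inducible HSP110, read 8.89, 8.38 and 8.77 in Del52, 8.11, 8.35 and 8.70 in Ins5 and 8.60, 8.87 and 8.13 in WT, with log2 fold changes against WT of 0.15 ± 0.26 in Del52 and -0.14 ± 0.26 in Ins5 (SE). HSPA4 and HSPA4L, also of the HSP110 family, ran opposite to the rest of the class across arrays. HSPA4L read 5.04, 5.43 and 4.82 in Del52, 4.48, 5.10 and 4.04 in Ins5 and 5.11, 4.10 and 5.77 in WT. HSPA4 read 9.40, 9.53 and 9.28 in Del52, 9.37, 9.49 and 9.29 in Ins5 and 9.41, 9.16 and 9.61 in WT. In both, WT was the highest array of number 3 and the lowest of number 2. For HSPA4L, Ins5 differed from WT by -0.63, 1.00 and -1.73 log2 units at numbers 1, 2 and 3, though the gene's mean lay within the antigenomic span. HSPA4 lay above that span. HSPA1L, expressed mainly in testis, ranged between 3.40 and 4.40 over the 9 arrays.

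J proteins deliver substrates to HSP70 and start its ATP cycle. DNAJB1, the inducible HSP40, read 7.76, 6.71 and 7.72 in Del52, 7.08, 6.59 and 7.92 in Ins5 and 6.92, 8.45 and 6.11 in WT. Against the WT array of the same number, Del52 differed by 0.83, -1.74 and 1.61 log2 units at numbers 1, 2 and 3, and Ins5 by 0.15, -1.87 and 1.81. Both mutants were thus far below WT in one set of arrays and far above it in another. All 3 bright DNAJB1 probe sets (mean above the antigenomic span) had this order. The mean log2 fold change against WT was 0.23 ± 0.71 in Del52 and 0.03 ± 0.71 in Ins5 (SE). The 95% interval of the Del52 value ran between -1.50 and 1.97 on the log2 scale.

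DNAJB4, a J protein of the same subfamily, had the smallest p of the set in all 3 comparisons, with the block and without it. It read 6.08, 6.12 and 6.18 in Del52, 5.91, 6.02 and 5.83 in Ins5 and 6.36, 6.20 and 6.33 in WT. The 3 constructs did not overlap: every Ins5 array was below every Del52 array, and every Del52 array was below every WT array. Within the numbers, Del52 differed from WT by -0.28, -0.07 and -0.15 log2 units and Ins5 from WT by -0.44, -0.17 and -0.50. Del52 minus Ins5 was 0.16, 0.10 and 0.35, so on this probe set each of the 3 sets had the same order. The log2 fold change was -0.17 ± 0.08 in Del52 against WT, -0.37 ± 0.08 in Ins5 against WT and 0.20 ± 0.08 in Del52 against Ins5 (SE; limma adjusted p = 1 in all 3). Without the block the adjusted p was 0.667, 0.466 and 0.841. Between the constructs lay 84.4% of the variance over the 9 arrays. The other 2 DNAJB4 probe sets gave -0.17 and -0.16 in Del52 against WT and -0.24 and -0.23 in Ins5 against WT, with overlapping groups. At number 2 these 2 put Del52 (6.07 and 6.14) and Ins5 (5.88 and 5.92) above WT (5.86 in each). At number 3 they put Del52 (5.73 in each) below Ins5 (5.92 and 5.91), so they did not keep the order above. All 3 DNAJB4 probe sets have means within the antigenomic span. Of the other J proteins, DNAJA1, DNAJA2 and DNAJB6 had log2 fold changes against WT between -0.03 and 0.19 in Del52 and between -0.08 and -0.02 in Ins5. DNAJB2 had -0.09 and -0.04.

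BAG factors release nucleotide from HSP70, and BAG3 steers clients to autophagy. BAG3, a strongly heat-inducible gene, read 6.66, 6.45 and 6.38 in Del52, 6.42, 6.49 and 6.46 in Ins5 and 6.42, 6.55 and 6.66 in WT, with log2 fold changes against WT of -0.05 ± 0.10 in Del52 and -0.09 ± 0.10 in Ins5 (SE). Its mean lay within the antigenomic span, and it did not follow the inducible HSP70 genes across arrays. BAG2, an inhibitor of the CHIP ubiquitin ligase, read 7.87, 7.87 and 7.96 in Del52, 7.81, 7.82 and 7.71 in Ins5 and 7.83, 7.82 and 7.85 in WT. The Del52 arrays stood above all others and the Ins5 arrays below all others, within a total range of 0.25 log2 units. The log2 fold change was 0.12 ± 0.06 in Del52 against Ins5 (SE). Against WT it was 0.06 ± 0.06 in Del52 and -0.05 ± 0.06 in Ins5. A second BAG2 probe set gave 0.06 in Del52 against Ins5, also with no overlap. Against WT it gave 0.005 in Del52, with overlapping groups, and -0.06 in Ins5, without overlap. BAG1 ranged between 6.54 and 7.22 over the arrays.

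HSP90 completes the folding of kinases and hormone receptors, helped by cochaperones that hand over or hold the client. HSP90AA1, the inducible form, read 10.65, 10.27 and 10.60 in Del52, 10.03, 10.15 and 10.61 in Ins5 and 10.46, 10.73 and 9.94 in WT. HSP90AB1, the constitutive form, read 10.97, 10.77 and 11.06 in Del52, 10.84, 10.76 and 11.04 in Ins5 and 10.90, 11.18 and 10.61 in WT. In both, the mutant arrays were below WT at number 2 and above it at number 3. Against WT, log2 fold changes in Del52 were 0.13 ± 0.26 and 0.03 ± 0.17, and in Ins5 -0.11 ± 0.26 and -0.01 ± 0.17 (SE).

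STIP1, the HOP protein that links HSP70 to HSP90, read 8.76, 8.60 and 8.61 in Del52, 8.49, 8.47 and 8.58 in Ins5 and 8.42, 8.60 and 8.48 in WT. Every Del52 array was above every Ins5 array, and only WT replicate 2 reached the Del52 values. The log2 fold change was 0.15 ± 0.08 in Del52 against WT, 0.02 ± 0.08 in Ins5 against WT and 0.14 ± 0.08 in Del52 against Ins5 (SE). A second, dimmer STIP1 probe set gave 0.19 in Del52 against WT and 0.28 in Del52 against Ins5, with no overlap in either. CHORDC1, the HSP90 cochaperone also called morgana, read 7.91, 7.73 and 7.72 in Del52, 7.37, 7.63 and 7.69 in Ins5 and 7.75, 7.67 and 7.63 in WT. Every Del52 array was above every Ins5 array, with WT between and overlapping both. Its log2 fold change was 0.22 ± 0.11 in Del52 against Ins5 (SE). Against WT it was 0.10 ± 0.11 in Del52 and -0.12 ± 0.11 in Ins5. All 5 CHORDC1 probe sets gave positive values in Del52 against Ins5, but only the probe set read here was without overlap. PTGES3, the p23 protein that slows the HSP90 ATP cycle, read 10.61, 10.57 and 10.66 in Del52 and 10.54, 10.56 and 10.51 in Ins5. These also did not overlap, by a narrow margin (10.567 in Del52 against 10.563 in Ins5 at the closest). CDC37, which brings kinases to HSP90, and the immunophilin FKBP4 had log2 fold changes of 0.13 and 0.26 in Del52 against WT.

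**Figure D2:**
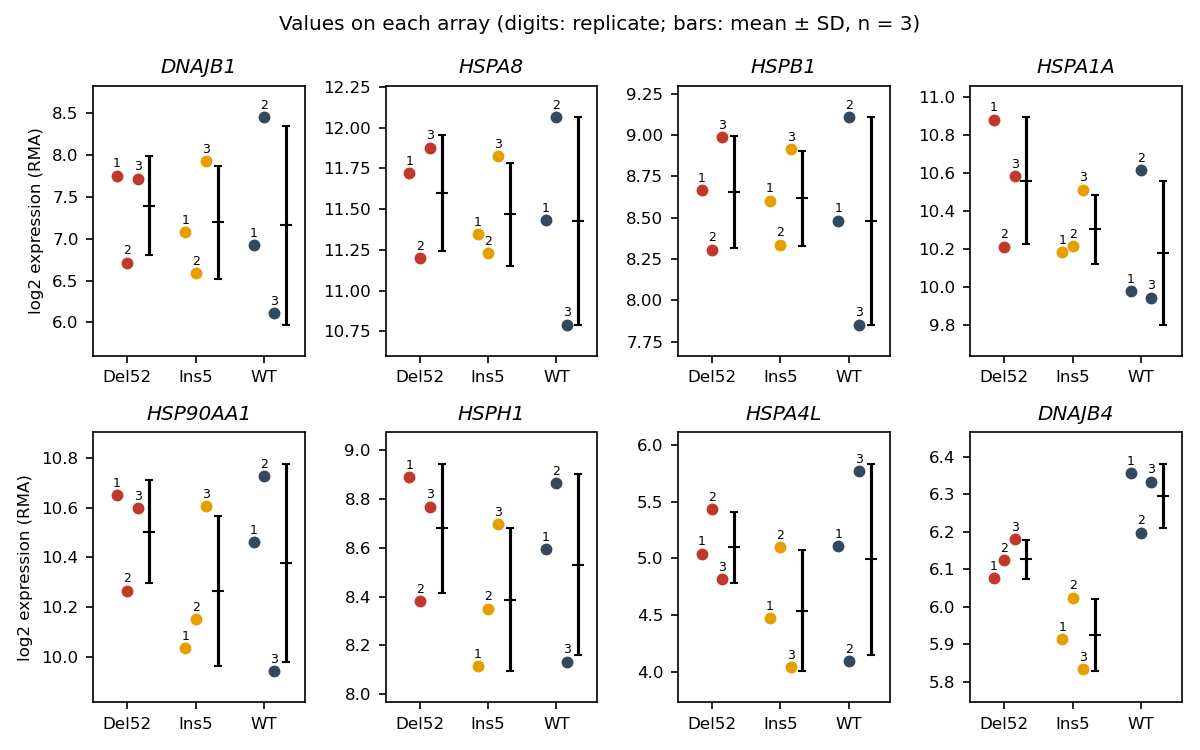
Each panel shows log2 expression of 1 gene on the 9 arrays, with the replicate number at each point and the group mean ± SD (n = 3) beside it; vertical axes differ and do not start at 0. DNAJB1, HSPA8, HSPB1, HSP90AA1 and HSPH1 spread widest in WT between replicates 2 and 3, HSPA4L spreads the other way, and DNAJB4 alone among these 8 separates the 3 constructs.

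HSPB1 (HSP27), a small heat shock protein that holds unfolded proteins without ATP, read 8.67, 8.31 and 8.99 in Del52, 8.60, 8.34 and 8.91 in Ins5 and 8.48, 9.11 and 7.85 in WT. Against WT, Del52 differed by 0.19, -0.80 and 1.14 log2 units at numbers 1, 2 and 3. The mean log2 fold changes against WT were 0.17 ± 0.37 in Del52 and 0.14 ± 0.37 in Ins5 (SE).

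HSPD1 and HSPE1 encode mitochondrial HSP60 and its lid HSP10 and share a bidirectional promoter. HSPD1 read 10.69, 10.55 and 10.75 in Del52, 10.48, 10.49 and 10.66 in Ins5 and 10.66, 10.79 and 10.42 in WT. HSPE1 read 9.94, 9.67 and 9.93 in Del52, 9.60, 9.62 and 9.85 in Ins5 and 9.70, 9.95 and 9.46 in WT. In both genes the mutant arrays were below WT at number 2 and above it at number 3. Against WT, their log2 fold changes were 0.04 ± 0.12 and 0.14 ± 0.16 in Del52 and -0.08 ± 0.12 and -0.02 ± 0.16 in Ins5 (SE). HSPA9 (mortalin), the mitochondrial HSP70, read 10.43, 10.59 and 10.51 in Del52, 10.64, 10.53 and 10.50 in Ins5 and 10.57, 10.51 and 10.62 in WT, and did not follow this order.

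TRiC, the cytosolic chaperonin, was measured through TCP1, CCT2, CCT3, CCT4, CCT5, CCT7 and CCT8. CCT4 read 10.80, 10.75 and 10.84 in Del52, 10.77, 10.71 and 10.78 in Ins5 and 10.81, 10.91 and 10.77 in WT. Its log2 fold change was -0.03 ± 0.07 in Del52 against WT and -0.08 ± 0.07 in Ins5 against WT (SE), with overlapping groups. The 7 subunits had log2 fold changes between -0.03 and 0.11 in Del52 against WT and between -0.08 and 0.05 in Ins5 against WT. In all 7, both mutant arrays were below WT at number 2 and above it at number 3.

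The order of mutant and WT arrays in the heat shock genes differed between the sets of arrays. At number 2 both mutant arrays were below the WT array in 28 of 35 heat shock genes (80.0%), against 42.0% of all genes. At number 3 both mutant arrays were above the WT array in 27 (77.1%, against 43.3%), and 24 genes (68.6%, against 27.2%) did both. At number 1 both mutant arrays were above WT in 10 (28.6%, against 38.3%) and below it in 6 (17.1%, against 22.8%). The all-gene shares include dim genes and were not counted for genes above the median level. A related count was: WT replicate 2 highest and WT replicate 3 lowest of the 9 arrays. That held in 16.2% of genes above the median level, 9.1% of all genes and 31.4% of the heat shock genes. Of 86 bright probe sets of 29 heat shock genes, 68 were below WT at number 2 and above it at number 3 in both mutants, including all 5 of HSPA8, all 8 of HSPH1 and all 6 of HSPD1. None of the 3 of HSPA4 or the 5 of HSPA9 was. The matching share of all bright probe sets was not counted, and probe sets of the same gene are not independent of each other.

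To place the arrays without the heat shock genes, the first principal component was computed over the other 18204 genes, and it held 70.5% of their variance. Scores, scaled to an SD of 1, were 0.30, -0.86 and 0.77 on the Del52 arrays, -0.16, -0.75 and 0.86 on the Ins5 arrays and -0.14, 1.61 and -1.63 on the WT arrays. The 3 scores of a number sum to 0, because the set means are equal. The component therefore mainly sets WT apart from both mutants, in opposite directions at numbers 2 and 3. Across probe sets, WT replicate 2 had a Pearson r of 0.9963 with Del52 and 0.9965 with Ins5 of number 3. With those of its own number r was lower, at 0.9837 and 0.9849. WT replicate 3 had 0.997 and 0.9964 with Del52 and Ins5 of number 2, and 0.9847 and 0.9832 with those of number 3. Each WT array was thus closer to the mutants of the other number. Labels were kept as given, and the reason was not tested. The slope of a gene along these scores is given in log2 units per SD, as a description without a test, since component and slopes come from the same arrays.

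The slope was positive in 28 of 35 heat shock genes (80.0%), against 56.0% of all genes, or 50.8% of all genes with each array centred on its median. The median slope was 0.13 in the set and 0.01 over all genes. As with the array values, the slopes are relative to the set means. DNAJB1 had the steepest slope at 0.74, followed by HSPA8 at 0.40, HSPB1 at 0.39 and HSPA1B at 0.31, all beyond the central 90% of all genes (-0.25 to 0.23). Slopes were wider among genes above the median level, where 34 of the 35 heat shock genes lie. The median absolute slope was 0.105 there, 0.049 over all genes and 0.138 in the set. The band therefore does not place these slopes among genes of like brightness. The lowest slopes were those of HSPA4L at -0.50, HSPA4 at -0.14, DNAJB4 at -0.05 and HSPA9 at -0.04. All 7 HSP90 and cochaperone genes and all 7 TRiC genes had positive slopes, though those of PTGES3 (0.01), CHORDC1 (0.03) and CCT7 (0.03) were near 0. So did HSF1, HSPB1, 5 of 7 HSP70 and HSP110 genes, 4 of 6 J proteins, 2 of 3 mitochondrial genes and 1 of 3 BAG genes. Among genes with a 3-unit heat shock element the slope was positive in 6 of 6 with a median of 0.16. It was positive in 8 of 11 with only the 2-unit match (median 0.22) and in 12 of 16 with no exact match in the windows read (median 0.07), and these sets were not tested.

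**Figure D3:**
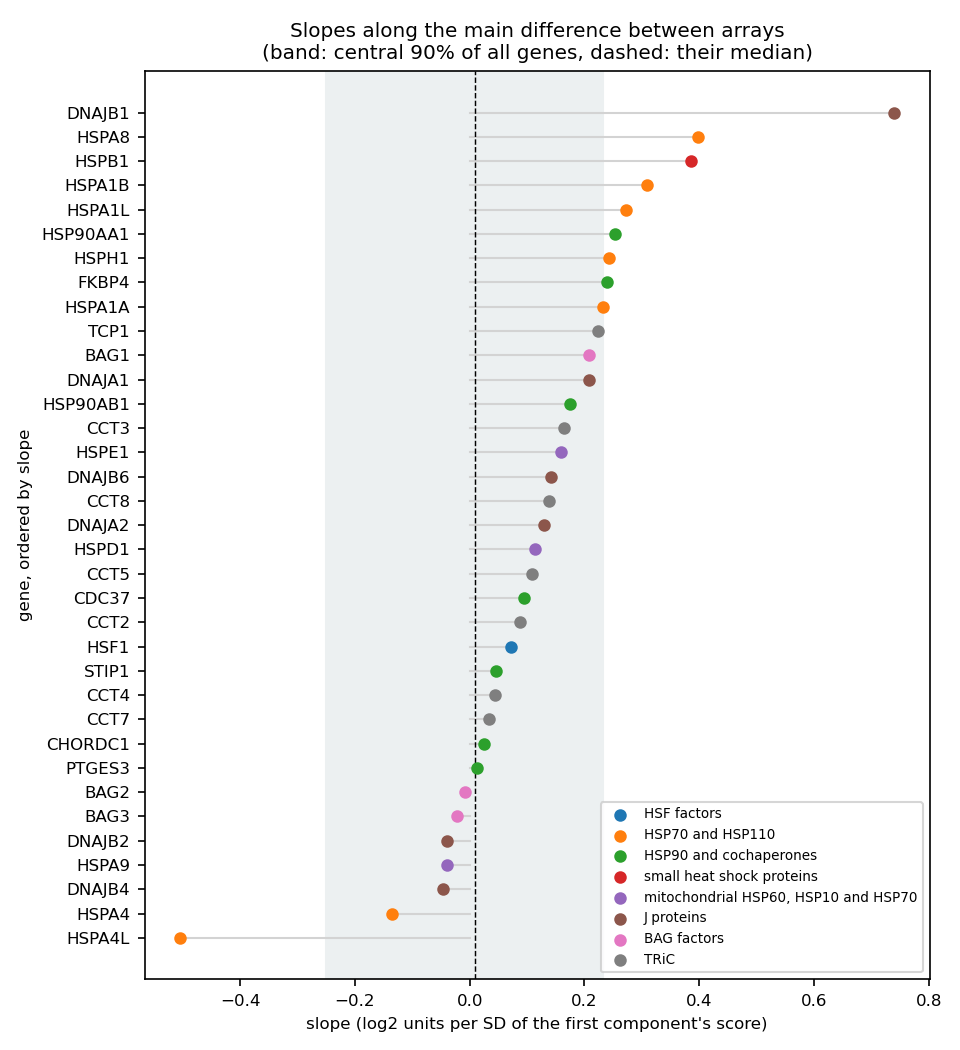
Each point is the slope of a heat shock gene in log2 units per SD of the first component's score over 9 arrays, coloured by role; the band holds the central 90% of all genes and the dashed line is their median. Of the 35 genes 28 lie right of 0, led by DNAJB1 at 0.74, with HSPA4L at -0.50 on the left.

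RNA controls differed between the same arrays, and they too are relative to the set means. The actin probe sets, read as 3′ minus 5′ signal in log2 units, differed by 1.18, 1.33 and 1.24 in Del52, 1.22, 1.38 and 1.24 in Ins5 and 1.39, 1.08 and 1.31 in WT. Both mutants were thus above WT at number 2 and below it at numbers 1 and 3. The GAPDH difference was 0.10, 0.09 and 0.10 in Del52, 0.09, 0.17 and 0.08 in Ins5 and 0.11, 0.03 and 0.11 in WT. The part of RNA quality in the order of the arrays was not tested.

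Del52 against WT asks what the deletion mutant changes. Of 35 heat shock genes, 27 had a higher mean in Del52, with a median log2 fold change of 0.10 (all genes 0.01) and a range of -0.27 to 0.55. The 7 HSP90 and cochaperone genes all had positive values with a median of 0.13, and 6 of 7 HSP70 and HSP110 genes did, with a median of 0.15. Within the sets of arrays the median was 0.16 at number 1 (27 positive genes), -0.29 at number 2 (5 positive) and 0.30 at number 3 (29 positive), against 0.02, -0.01 and 0.01 over all genes. On the probe sets used, BAG2 and CHORDC1 were higher in Del52 in all 3 sets, and DNAJB4 was lower in all 3. The matching shares of all genes were not counted. The second BAG2 probe set had Del52 below WT at number 1 (7.78 against 7.79), and the other DNAJB4 probe sets had Del52 above WT at number 2. The CHORDC1 probe sets with means within the antigenomic span had Del52 below WT at number 2 (5.02 against 5.39, 5.31 against 5.49 and 5.44 against 5.66). The other bright CHORDC1 probe set had Del52 above WT in every set. At an unadjusted limma p under 0.05 there were 0 genes with the block (2.12% of all genes reached this) and 1 without it, DNAJB4 (7.05% of all genes). Groups did not overlap in 1 gene above WT, BAG2 (6.23% of all genes), and 1 gene below, DNAJB4 (4.36% of all genes). The median moved when single arrays were left out. It was -0.02 with 16 positive genes when WT replicate 3 was left out and 0.18 without WT replicate 2. It was 0.04 without Del52 replicate 1 or without Del52 replicate 3. Without both WT replicates 2 and 3 it was 0.07, with the remaining WT array assumed to vary like the others.

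Ins5 against WT asks the same of the insertion mutant. Of 35 heat shock genes, 12 had a higher mean in Ins5, with a median log2 fold change of -0.02 (all genes 0.02) and a range of -0.45, in HSPA4L, to 0.22, in HSPA1B. Centring each array on its median gave 8 of 35 positive and a median of -0.05, and quantile normalization gave 17 of 35. Within the sets of arrays the median was -0.05 at number 1 (12 positive genes), -0.30 at number 2 (4 positive) and 0.31 at number 3 (27 positive), against 0.03, -0.003 and 0.03 over all genes. DNAJB4 was the 1 gene at an unadjusted limma p under 0.05, both with the block (2.12% of all genes) and without it (7.41% of all genes). HSF1 was the 1 gene in which every Ins5 array exceeded every WT array (8.16% of all genes), and DNAJB4 and BAG2 were the 2 below (3.3% of all genes). The median was 0.07 without WT replicate 2, -0.11 without WT replicate 3, -0.09 without Ins5 replicate 3 and -0.05 without WT replicate 1. It was 0.01 without Ins5 replicate 2 and -0.002 without Ins5 replicate 1.

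Del52 against Ins5 compares the mutants with each other. The mean was higher in Del52 in 30 of 35 genes, with a median log2 fold change of 0.08 (all genes -0.01) and a range of -0.09 to 0.56. Positive values were found in all 7 HSP90 and cochaperone genes, all 7 TRiC genes and all 3 BAG genes. Within the sets of arrays the median was 0.24 at number 1 (33 positive genes), 0.01 at number 2 (20 positive) and 0.02 at number 3 (22 positive), against 0.00, -0.01 and -0.01 over all genes. In 14 genes Del52 was above Ins5 in all 3 sets, and HSF1 was the 1 gene below in all 3. The matching shares of all genes were not counted, so these counts only describe the set. At an unadjusted limma p under 0.05 there were 0 of 35 genes with the block (1.33% of all genes) and 3 without it, DNAJB4, BAG2 and CHORDC1 (5.77% of all genes). Every Del52 array exceeded every Ins5 array in 5 genes, DNAJB4, BAG2, STIP1, PTGES3 and CHORDC1 (3.81% of all genes), and 0 genes were below throughout (6.28% of all genes). On the other probe sets of DNAJB4 and CHORDC1, and on some of PTGES3, these groups overlapped. On the second probe sets of BAG2 and STIP1 they did not. Without Ins5 replicate 3 or without Del52 replicate 2 the median was 0.17. Without Del52 replicate 3 it was 0.05.

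**Figure D4:**
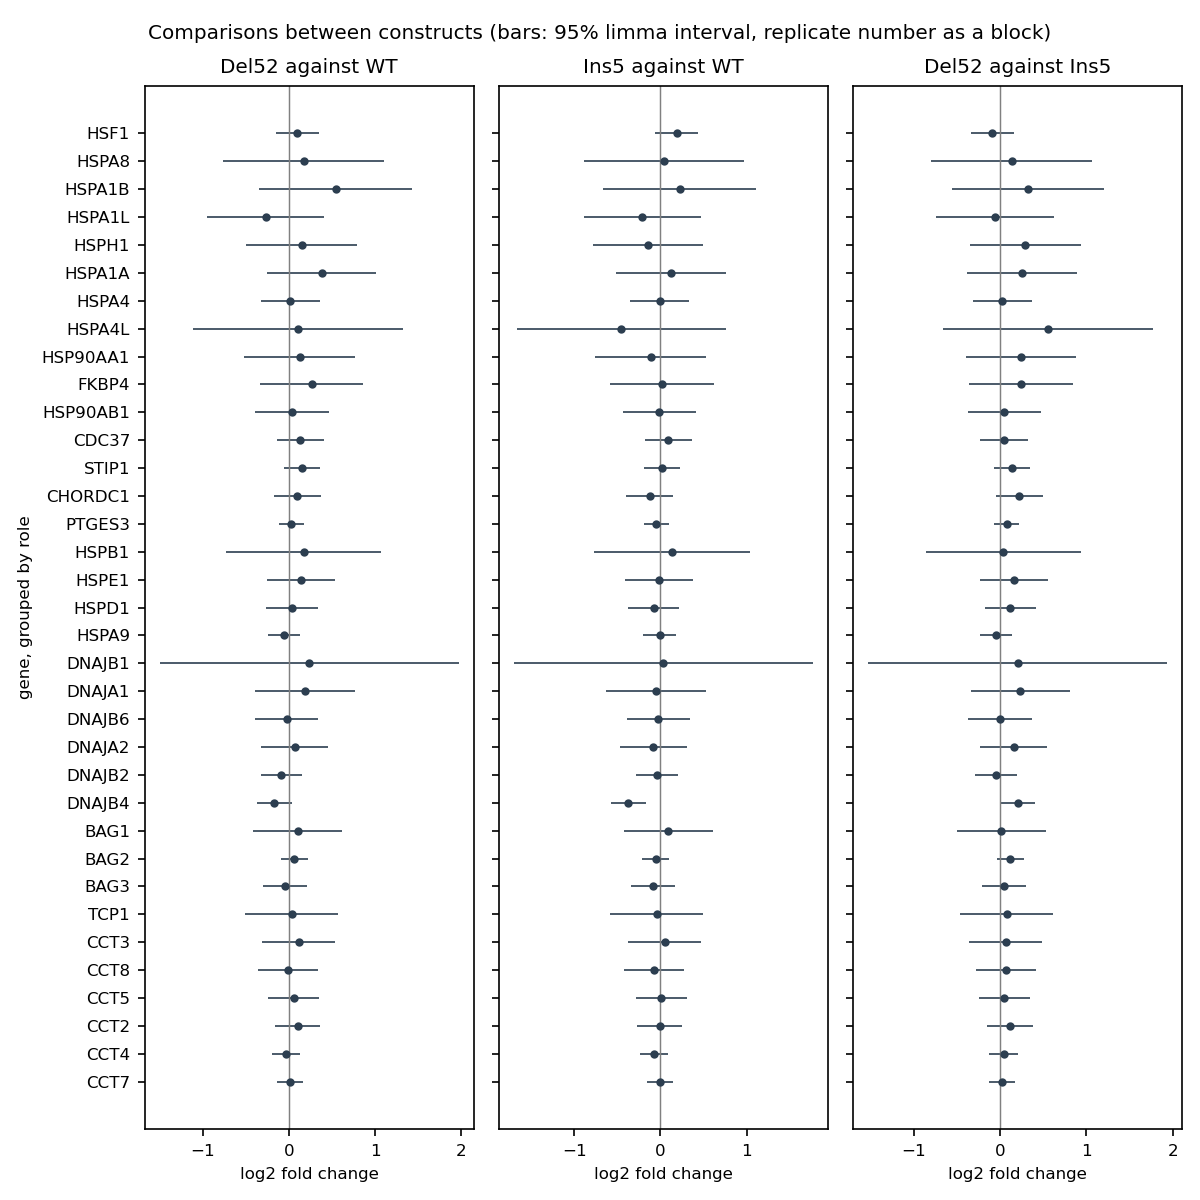
Points are log2 fold changes of the 35 heat shock genes, grouped by role, in Del52 against WT, Ins5 against WT and Del52 against Ins5; bars are 95% limma intervals with the replicate block, without adjustment over genes. Only DNAJB4 in Ins5 against WT has an interval clear of 0, and the interval of DNAJB1 is the widest, at -1.50 to 1.97 in Del52 against WT.

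Neighbouring chaperone groups were placed on the same arrays for comparison. Relative to each gene's mean over 9 arrays, the heat shock median was 0.16, -0.08 and 0.12 on the Del52 arrays, -0.10, -0.09 and 0.11 on the Ins5 arrays and -0.03, 0.19 and -0.19 on the WT arrays. Both mutant arrays were below WT at number 2 and above it at number 3 in 23 of 55 further cytosolic chaperone genes (41.8%), 6 of 15 mitochondrial chaperone and protease genes (40.0%) and 3 of 19 ER chaperones (15.8%), against 68.6% in the heat shock set and 27.2% of all genes. These differences between groups of genes were not tested, and the groups were not matched for brightness.

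**Figure D5:**
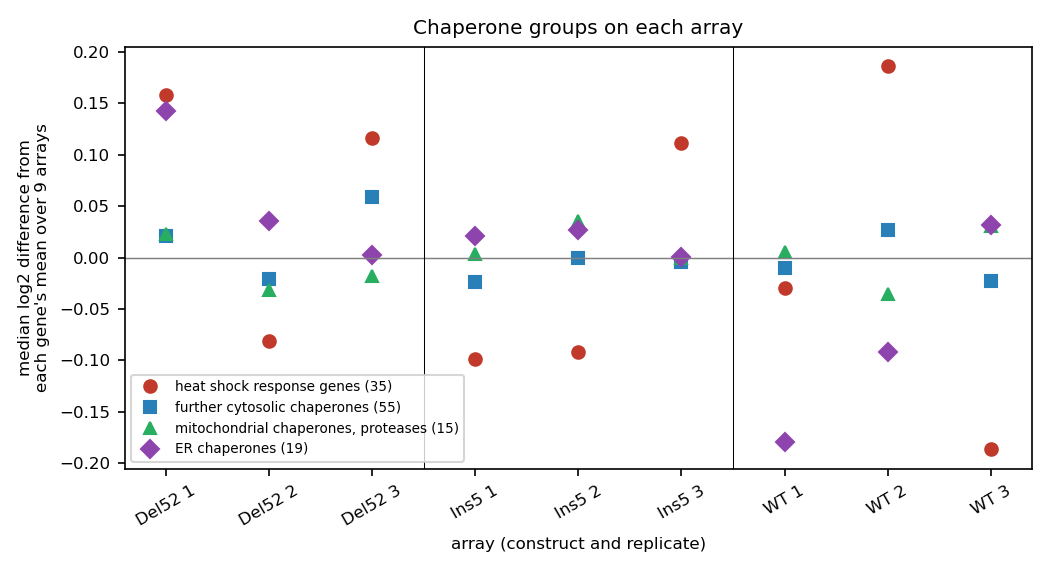
Each point is the median, over the genes of a group, of the log2 difference from the gene's own mean over 9 arrays, with arrays along the horizontal axis. The heat shock genes reach 0.19 on WT replicate 2 and -0.19 on WT replicate 3, while the further cytosolic chaperones stay near 0 on both.

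None of the 3 neighbouring groups held a gene that passed in any comparison (limma without the block, 0 of 55, 0 of 15 and 0 of 19). In Del52 against WT, positive values were found in 37 of 55 further cytosolic genes (median 0.01), 9 of 15 mitochondrial genes (0.05) and 12 of 19 ER chaperones (0.19). The smallest p-values belonged to HSF5 (0.17), a testis heat shock factor, and the HSP90 cochaperone CDC37L1 (-0.18), to the mitochondrial exchange factor GRPEL2 (-0.38) and protease LONP1 (-0.13), and to DNAJB9 (-0.60) and PDIA3 (0.42) of the ER. In Ins5 against WT, 25 of 55, 10 of 15 and 12 of 19 were positive, with medians of -0.003, 0.04 and 0.13. The smallest p-values there were those of HSPB7 (0.11) and the prefoldin subunit PFDN6 (-0.25), GRPEL2 (-0.20) and LONP1 (0.12), and HYOU1 (0.23) and DNAJB9 (-0.45). In Del52 against Ins5, 34 of 55, 7 of 15 and 12 of 19 were positive, with medians of 0.03, -0.02 and 0.04. CRYAB (0.14) and PFDN6 (0.30), LONP1 (-0.25) and GRPEL2 (-0.18), and PDIA3 (0.14) and HSPA5 (0.13) had the smallest p-values.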

How the data were processed

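Per the submitters' processing notes, the deposited values were made with Partek and RMA (a method that adjusts background, equalises arrays and summarises the probes of a set), with versions not given in the sources used here. Values are deposited on a log2 scale, a base read from their maximum of 12.2. The arrays give no read depth, so their number, 3 per group, limits the precision.

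Of 49386 probe sets, 93 controls were left out, 45253 carried 1 gene symbol in the platform annotation, 1327 several and 2713 none. By gene identifier, 45172 matched RefSeq (GRCh38.p14). The brightest single-symbol probe set stood for each of 18239 genes.

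In the deposited log2 values the 3 arrays of each replicate number have the same mean for every probe set, within 0.0001, and no source used here states the step behind it. This was seen after the data were examined. limma 3.58.1 (R 4.3.3) fitted a mean per group over 9 arrays, with two-sided p-values. The planned fit had no covariates and 6 residual degrees of freedom, which counts the equal means as free. SE and adjusted p are therefore given from the fit with the number as a block (4 residual degrees of freedom), and counts of calls from both. The fit was tested on simulated data. Members and lists were chosen with earlier results of these data known. Full values are given for the 4 members with the smallest p per comparison and for 12 core inducible genes. Along the first component the 4 highest and 4 lowest slopes are named, and of other lists the 2 smallest p. Alternatives were other normalizations, filters, probe sets, variance models, a replicate block, array weights, a component covariate and each array left out. Centring within replicate numbers was added after seeing the data. Motifs were searched with Python 3.11.15.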

Additional observations from a re-analysis of the deposited data

How the results depend on the processing

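Of 19 alternative settings, 9 of which left out 1 array, none gave a called heat shock gene in Del52 against Ins5, and only array weights did so in the other comparisons. These called 3190 genes in Del52 against WT, 6 of them heat shock genes (HSPA1A, HSPA1B, DNAJB4, STIP1, CDC37 and CCT2), 4017 genes in Ins5 against WT, 2 of them heat shock genes (DNAJB4 and CHORDC1), and 6 heat shock genes in the F test. In that fit WT replicate 1 had a weight of 67.0 against 0.237 to 1.82 for the other arrays, and the weight estimation did not converge fully. The first component as a covariate called 4 genes in Del52 against WT and 7 in Ins5 against WT, none a heat shock gene. With each array left out in turn, the called counts stayed at 0, and the median log2 fold change of the set ran between -0.02 and 0.18 in Del52 against WT, -0.11 and 0.07 in Ins5 against WT and 0.05 and 0.17 in Del52 against Ins5. With the replicate block, 0 heat shock genes were called (smallest limma adjusted p = 1) and the medians were 0.10, -0.02 and 0.08. At an unadjusted p under 0.05 it left 386, 386 and 242 of all genes, against 1285, 1351 and 1052 without it. Deviations of same-numbered arrays from their group means correlated between -0.92 and 0.64, but the deviations of a number sum to 0 because the set means are equal, so this does not show whether the numbers pair the arrays. The fits other than the block also count the equal means as free, so their SE may be too small. Centring within each replicate number, chosen after seeing the data, left the median slope at 0.13. It could not do otherwise, because the set means were already equal, so it is no check of the slopes. For DNAJB4 in Ins5 against WT, all 21 alternatives kept the negative sign (-0.43 to -0.23), with limma adjusted p between 0.00507 (array weights) and 1. Several of these cannot change the estimate: the block, the intensity trend, fitting Ins5 and WT alone and leaving out a Del52 array. The count of 21 therefore overstates how far the sign was tested. Of the values of single named genes under the alternatives, 926 stayed within 1 SD of the value reported, 21 moved by more without being called, and 6 were called, all with array weights. The 926 include settings that cannot change the estimate.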
